A study of Mus musculus with 6 samples.

Results

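The genes followed here mark or build the follicular helper programme of CD4+ T cells: 7 genes with 10 probes among 55371 usable probes (22565 named genes), chosen by symbol and matched through RefSeq accessions. They were the chemokine receptor Cxcr5, the transcription factors Bcl6, Maf and Ascl2, the coactivator Pou2af1, the cell-cell receptor Slamf6 and its adaptor Sh2d1a. Cxcr5, Bcl6, Maf, Pou2af1 and Ascl2 had 1 probe each, Slamf6 had 2 and Sh2d1a had 3. Of these, 8 probes of 5 genes were bright, meaning a mean log2 intensity of at least 8 over the 6 arrays, and were tested with limma among the 10225 bright probes. Maf lay just under that minimum at a mean of 7.91 and Ascl2 far under it at 4.49, so both are given mainly as raw intensities.

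All cells studied were CD45.2+ TEa cells, CD4+ T cells with a transgenic receptor (Vα2+Vβ6+) that recognises a graft-derived peptide on the host's own MHC class II. Either Irf4-/- or WT TEa cells entered B6.SJL CD45.1+ mice on day -1, a Balb/c heart followed on day 0, and the donor cells were sorted from the spleen on day 6. The first group, called Irf4 KO blockade, held Irf4-/- TEa cells in recipients given 200 µg of anti-PD-L1 and 200 µg of anti-CTLA-4 (clone 9D9) on days 0, 3 and 5. The second, Irf4 KO IgG, held Irf4-/- TEa cells in recipients given 400 µg of rat IgG on the same days, and the third, WT IgG, held WT TEa cells with rat IgG at an unstated dose. Independent experiments gave 2 arrays a group. The one labelled as the repeat is array 2 and the other is array 1. Recipients were not themselves Irf4 deficient by their labels, a single receptor clone was studied, and neither the sex nor the age of the animals nor the number of mice behind an array is given in the sources used here.

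Follicular helper T cells enter B cell follicles and help germinal centre B cells. Bcl6 is the repressor that defines them, Ascl2 can switch on Cxcr5 early, Maf drives Il21 and sustains the programme, and Cxcr5 reads the follicular chemokine CXCL13. Sh2d1a encodes SAP, the adaptor that lets receptors of the SLAM family such as Slamf6 sustain contact between T and B cells, and Pou2af1 encodes OCA-B, a partner of octamer-binding factors that is abundant in B cells and also used by T cells. Irf4, a factor induced through the T cell receptor, is required for this programme in mice.

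Some facts about the arrays touch every value below. Irf4 KO IgG cells gave more signal from weak probes: 67.6% and 76.5% of their spots were well above background, against 37.2% to 42.9% on the other 4 arrays. Normalised levels are therefore quantile-normalised among the bright probes, and a difference is relative to them. All 11 T cell identity markers were well above background on every array. Of 13 B cell markers, 11 and 13 were well above background on Irf4 KO IgG arrays 1 and 2, against 2 or 3 on the other arrays, and their summed raw intensity was 408 and 421 on the blockade arrays, 1253 and 6821 on Irf4 KO IgG arrays 1 and 2, and 241 and 268 on the WT arrays. Irf4 itself read higher on the arrays labelled Irf4 KO: its bright probe gave normalised log2 levels of 11.09 and 11.14 with blockade, 11.22 and 11.08 with IgG and 9.61 and 9.82 in WT cells, so Irf4 KO IgG exceeded WT by 1.44 (SE 0.13, adjusted p = 0.0182), though it gave -1.28 when arrays were scaled by the median of all usable probes, detected or not. Where its probes lie relative to the deleted part is not given in the sources used here, so this neither supports nor contradicts the label, and every comparison below is between cells as labelled.

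Cxcr5 read lowest with blockade and highest in WT cells. Its raw intensity was 2466 and 1807 on Irf4 KO blockade arrays 1 and 2, 3253 and 6397 on Irf4 KO IgG arrays 1 and 2, and 7774 and 11551 on WT arrays 1 and 2. The 3 groups did not overlap, with blockade lowest and WT highest, and the same order held after normalisation. The share of all probes that separate in such a way was not counted, for Cxcr5 or for the genes below. With 2 arrays a group, separation alone therefore says little. Normalised log2 levels averaged 11.28 ± 0.08 with blockade, 12.03 ± 0.25 in Irf4 KO IgG cells and 13.10 ± 0.15 in WT cells (SD, n = 2 each).

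Sh2d1a was lower in Irf4 KO IgG cells by all 3 of its probes. The first probe, the brightest, read 2158 and 2166 with blockade, 1945 and 2611 in Irf4 KO IgG cells, and 3768 and 4878 in WT cells. The second read 1484 and 1365, 1083 and 1929, and 2461 and 3016 for blockade, Irf4 KO IgG and WT in turn. The third read 1185 and 1169 with blockade, 959 and 1627 in Irf4 KO IgG cells and 1900 and 2254 in WT cells. By each probe both WT arrays lay above all 4 arrays of cells labelled Irf4 KO, while blockade and Irf4 KO IgG overlapped in raw intensity. After normalisation both blockade arrays lay above both Irf4 KO IgG arrays for each probe. The first probe, for example, averaged 11.31 ± 0.23 with blockade, 10.96 ± 0.18 in Irf4 KO IgG cells and 11.98 ± 0.01 in WT cells (SD, n = 2 each).

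Bcl6 varied as much between the WT arrays as between groups. Its raw intensity was 1073 and 1120 with blockade, 1893 and 3187 in Irf4 KO IgG cells, and 1305 and 2943 in WT cells. Normalised levels were 10.17 and 10.56 with blockade, 11.03 and 11.14 in Irf4 KO IgG cells, and 10.52 and 11.25 in WT cells, so the Irf4 KO IgG arrays lay between the WT arrays and the blockade arrays lay under both Irf4 KO IgG arrays.

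Slamf6 gave different orders by its 2 probes. The brighter read 5505 and 4164 with blockade, 3320 and 6519 in Irf4 KO IgG cells, and 4220 and 4443 in WT cells, and the weaker read 1193 and 714, 962 and 2291, and 1153 and 2045 for the same groups in that order. Neither separated the groups in raw intensity. On the normalised scale blockade averaged highest by the brighter probe (12.40 ± 0.08, against 12.07 ± 0.23 in Irf4 KO IgG and 11.99 ± 0.21 in WT cells) but lowest by the weaker (10.13 ± 0.25, against 10.29 ± 0.49 and 10.54 ± 0.28, SD, n = 2 each).

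Pou2af1 was level across 5 arrays and high on 1. Raw intensities were 827 and 743 with blockade, 877 and 2087 in Irf4 KO IgG cells, and 781 and 1184 in WT cells. On the normalised scale Irf4 KO IgG array 2 stood at 10.50, while the other 5 arrays lay between 9.81 and 10.01. This is the array with the highest summed signal of B cell markers (6821), whose members Ms4a1 and Cd79b read 745 and 2690 there, against 4.28 and 9.34 for Ms4a1 and 43.7 and 51.8 for Cd79b on the 2 WT arrays. B cells also express Cxcr5, and the part of B cell RNA in the Pou2af1 and Cxcr5 signals was not tested.

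**Figure D1:**
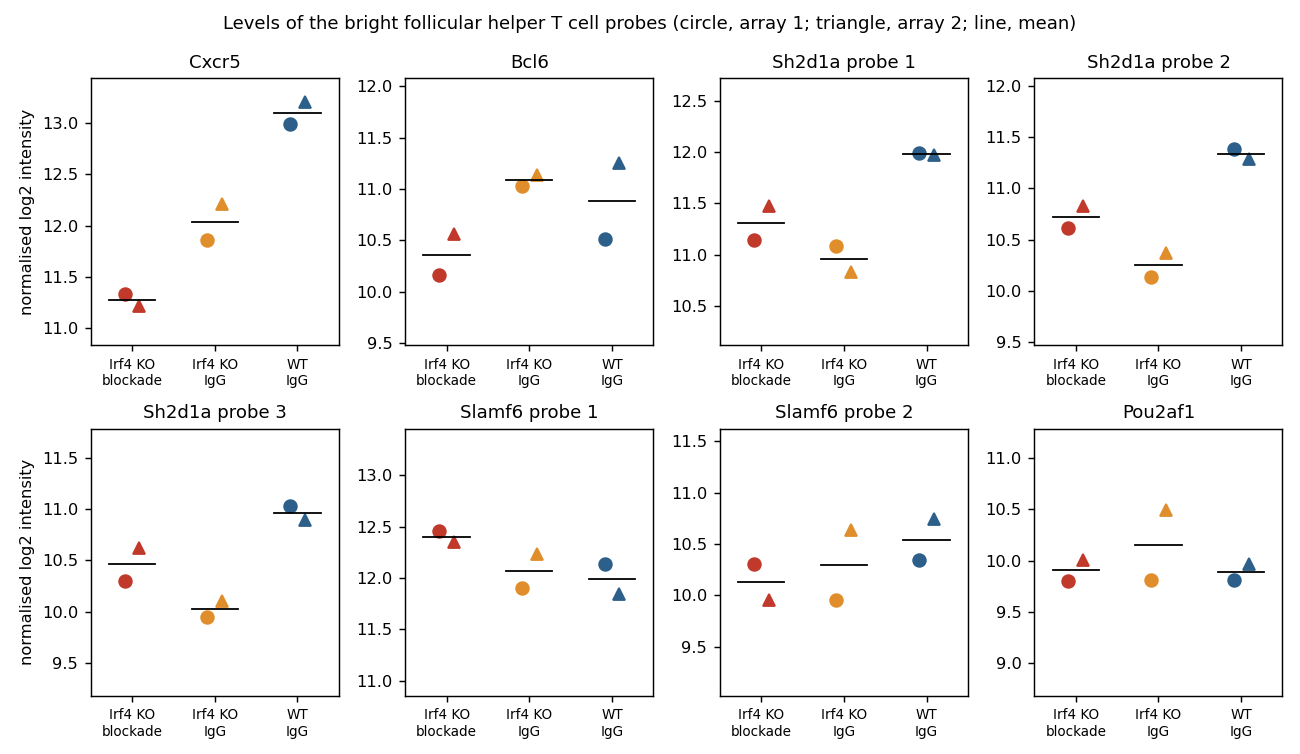
Normalised log2 intensity (vertical axis, each panel spanning 2.6 log2 units) of the 8 bright probes by group (Irf4 KO blockade, Irf4 KO IgG, WT IgG), with a circle for array 1, a triangle for array 2 and a line for the group mean. Cxcr5 steps up over the 3 groups (means 11.28, 12.03 and 13.10), the 3 Sh2d1a probes are highest in WT cells, and Pou2af1 stands out only on Irf4 KO IgG array 2.

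Maf, which is dim, read 141 and 26.1 with blockade, 159 and 516 in Irf4 KO IgG cells, and 659 and 979 in WT cells, and was well above background on all 6 arrays. The WT arrays were highest and the blockade arrays lowest, with no overlap between the 3 groups in raw intensity. With the minimum lowered to a mean log2 of 7, which admits Maf among 13155 probes, its normalised levels were 7.32 and 5.67 with blockade, 7.04 and 8.27 in Irf4 KO IgG cells, and 9.58 and 9.69 in WT cells. On that scale the WT arrays stayed highest, but blockade and Irf4 KO IgG overlapped. There the log2 fold change was -1.98 (SE 0.63, adjusted p = 0.148) for Irf4 KO IgG over WT, -3.14 (SE 0.63, adjusted p = 0.113) for blockade over WT, and -1.16 (SE 0.63, adjusted p = 0.279) for blockade over Irf4 KO IgG, so none passed.

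Ascl2 read 37.5 and 5.94 with blockade, 90.3 and 169 in Irf4 KO IgG cells, and 4.27 and 8.79 in WT cells. The scanner software called it well above background for 1 of 2 blockade arrays, both Irf4 KO IgG arrays and neither WT array. Taking for each WT array the higher of the probe's own signal and the lowest signal called well above background (20.2 and 17.7), Irf4 KO IgG was at least 6.53-fold higher in raw intensity, or at least 2.84-fold after dividing by each array's 75th percentile. Many probes behaved this way: 38.3% of the 31515 probes that were dim in WT cells exceeded background in both Irf4 KO IgG samples. Ascl2 was too dim for the test among bright probes and for the lower minimum. It was fitted only with the 2 scales over all usable probes, and its results there are not given. Those scales called 56.3% and 65.6% of all tested probes for Irf4 KO IgG over WT. The part of the general rise of weak signals in the value of Ascl2 cannot be told apart from a change of the gene.

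**Figure D2:**
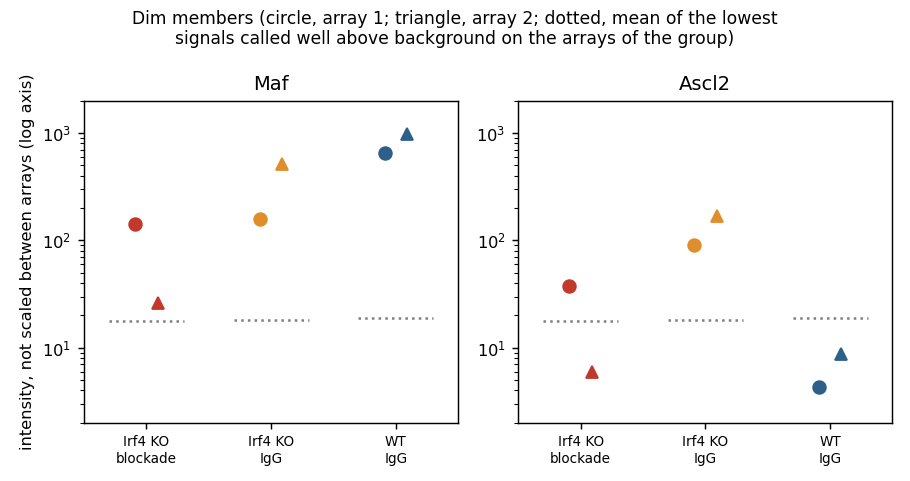
Raw intensity on a log axis of Maf and Ascl2 by group (Irf4 KO blockade, Irf4 KO IgG, WT IgG), a circle for array 1 and a triangle for array 2, with a dotted line for the mean of the lowest signals called well above background on the arrays of a group. Maf is highest on the WT arrays (659 and 979), and Ascl2 is above the dotted line on both Irf4 KO IgG arrays and 1 blockade array.

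The first comparison, Irf4 KO IgG against WT IgG, asks what differs in cells labelled as lacking Irf4. Cxcr5 and Sh2d1a were lower in Irf4 KO IgG cells, and no member was higher among those tested. Cxcr5 fell by 1.06 on the log2 scale (SE 0.16, adjusted p = 0.0468), to 47.8% of the WT level. The 3 Sh2d1a probes fell by 1.02 (SE 0.16, adjusted p = 0.0468), 1.08 (SE 0.14, adjusted p = 0.0370) and 0.94 (SE 0.15, adjusted p = 0.0480). In all, 4 of the 8 member probes, from 2 of 5 genes, were called lower. Among all bright probes 2.41% were called in either direction, 0.998% lower and 1.41% higher, and the median log2 fold change was -0.59 over the member probes and -0.02 over all. The 3 Sh2d1a probes read the same transcript, so they are no separate evidence, and with the brightest probe of each of the 5 genes the member median was 0.08. Within each row of the slide, which holds 1 array of every group, Cxcr5 differed by -0.99 and -1.13.

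Bcl6 differed by 0.20 (95% interval -0.47 to 0.87, adjusted p = 0.690), Pou2af1 by 0.26 (interval -0.33 to 0.86, adjusted p = 0.548), and the Slamf6 probes by 0.08 (interval -0.35 to 0.50) and -0.25 (interval -0.94 to 0.44) at adjusted p of 0.819 and 0.620.  Without Irf4 KO IgG array 2, Pou2af1 differed by -0.082 instead.

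The calls are close to the threshold. With the slide row as a block, Cxcr5 alone passed (adjusted p = 0.0485), with replicate numbers as a block none did, and with 1 array left out 2 probes (Cxcr5 and the second Sh2d1a probe) passed without Irf4 KO IgG array 2 and 0 without any of the other 5, though the fold changes stayed between -1.26 and -0.86.

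The second comparison, Irf4 KO blockade against Irf4 KO IgG, asks what the antibodies to PD-L1 and CTLA-4 change in cells labelled Irf4 KO. No member probe passed by limma, against 0.9% of all bright probes, and 4 of 8, from 3 genes, were under an unadjusted p of 0.05, as were 28.6% of all bright probes. Cxcr5 differed by -0.76 (SE 0.16, interval -1.16 to -0.35, adjusted p = 0.0768) and Bcl6 by -0.72 (SE 0.27, interval -1.39 to -0.06, adjusted p = 0.155), both lower on each blockade array than on each Irf4 KO IgG array. The Sh2d1a probes differed the other way, by 0.35, 0.47 and 0.44 (adjusted p = 0.211, 0.116 and 0.141). The Slamf6 probes differed by 0.33 and -0.16 and Pou2af1 by -0.25, with adjusted p from 0.254 to 0.720. The member median was 0.09 over the 8 probes but -0.25 with the brightest probe of each gene, against 0.03 over all bright probes. The Cxcr5 and Bcl6 differences have the opposite sign when arrays are scaled over all usable probes (0.44 and 0.39 with the 75th percentile), a scale that carries the brighter weak probes of the Irf4 KO IgG arrays.

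The third comparison, Irf4 KO blockade against WT IgG, spans both differences, and all 3 comparisons share arrays with each other. Cxcr5 was lower in blockade cells by 1.82 on the log2 scale, a fold change of -1.82 (SE 0.16, interval -2.23 to -1.42, adjusted p = 0.0190), at 28.3% of the WT level. It was the one call among 8 member probes, where 0.724% of all bright probes were called, 0.284% lower and 0.44% higher. Within the slide rows it differed by -1.87 and -1.77. The Sh2d1a probes differed by -0.67, -0.62 and -0.50 (adjusted p = 0.123, 0.118 and 0.177), Bcl6 by -0.52 (0.363), Slamf6 by 0.41 (0.276) and -0.41 (0.479), and Pou2af1 by 0.02 (0.980), the values in parentheses being adjusted p. The member median was -0.51, against 0.00 over all bright probes. Cxcr5 passed without either Irf4 KO IgG array, but not without WT array 1 (adjusted p = 0.0768), WT array 2 (0.109), blockade array 1 (0.164) or blockade array 2 (0.208), where its fold change lay between -1.91 and -1.72.

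**Figure D3:**
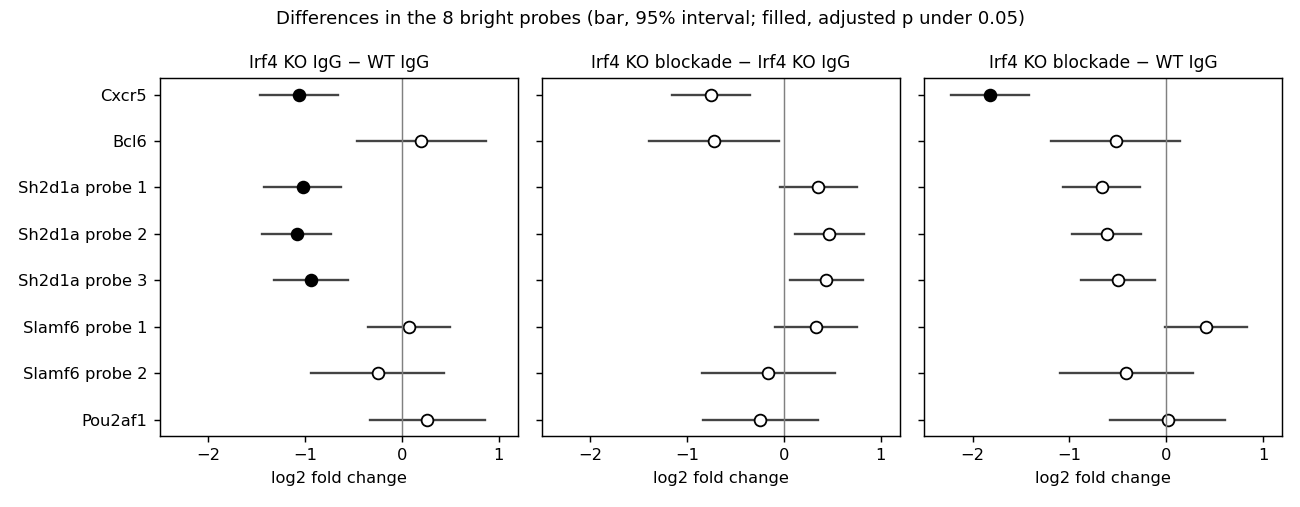
Log2 fold changes (horizontal axis) of the 8 bright probes in the 3 comparisons, with 95% intervals as bars and filled points for an adjusted p under 0.05. The filled points are Cxcr5 and the 3 Sh2d1a probes for Irf4 KO IgG against WT and Cxcr5 (-1.82) for blockade against WT, and there is none for blockade against Irf4 KO IgG.

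Genes that act beside these members were taken as lists by role, each gene by its brightest probe. For the counts below, 1.41% of all bright probes were called higher and 0.998% lower for Irf4 KO IgG over WT. For blockade over WT the shares were 0.44% and 0.284%. Among 11 tested surface and signalling genes of follicular helper cells, Icos, the costimulator through which B cells hold T cells in the follicle, and P2rx7, an ATP-gated channel, were lower in Irf4 KO IgG cells than in WT cells, and none was higher. Icos read 5141 and 3372 with blockade, 4070 and 6697 in Irf4 KO IgG cells and 9995 and 14552 in WT cells, and so both WT arrays were highest. It fell by 1.19 in Irf4 KO IgG cells (SE 0.15, adjusted p = 0.0338), and with blockade the log2 fold change was -1.22 (SE 0.15, adjusted p = 0.0399), both against WT. P2rx7 fell by 1.25 in Irf4 KO IgG cells against WT (SE 0.13, adjusted p = 0.0215) and differed by -0.84 with blockade against WT (adjusted p = 0.0565). The list's median was -0.01 for Irf4 KO IgG over WT, close to that of all bright probes.

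A list of transcription factors around follicular helper cells had 10 tested: Tox, Tcf7, Lef1, Batf, Stat3, Id3, Nfatc1, Nfatc2, Ets1 and Mafg. Whether each of them promotes the programme was not tested. Of the 10, 2 were higher in Irf4 KO IgG than in WT cells and none was lower. They were Tox (1.11, SE 0.13, adjusted p = 0.0304), an HMG-box factor, and Lef1 (0.85, SE 0.14, adjusted p = 0.0491), a partner of Tcf7 that acts upstream of Bcl6. With a scale over all usable probes both signs can turn: the array median gave -1.64 for Tox and -2.16 for Lef1, and the 75th percentile -0.49 for Lef1. Raw Tox was 1911 and 1452 with blockade, 2318 and 4085 in Irf4 KO IgG cells, and 1051 and 1634 in WT cells. Against WT, blockade cells had 1 lower call, Nfatc2 (-1.28, SE 0.16, adjusted p = 0.0442), a calcium-dependent factor, and no higher one. The list's median was 0.22 for Irf4 KO IgG and -0.20 for blockade over WT.

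Of 12 tested genes that oppose the programme, Bach2 was higher (1.51, SE 0.24, adjusted p = 0.0468) and Runx3 lower (-1.04, SE 0.11, adjusted p = 0.0237) in Irf4 KO IgG than in WT cells. Bach2 is a repressor that restrains effector differentiation, and Runx3 is a factor of cytotoxic and Th1 cells. The array median over all usable probes turned Bach2 to -1.01. Runx3 was also the one call, lower, with blockade against WT (-1.55, SE 0.11, adjusted p = 0.0121), and it read 296 and 219 with blockade, 475 and 723 in Irf4 KO IgG cells and 795 and 1172 in WT cells.

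None of 9 tested genes of the SLAM family and its signalling passed in any comparison, with 2, 2 and 4 under an unadjusted p of 0.05 by limma for Irf4 KO IgG over WT, blockade over Irf4 KO IgG and blockade over WT. Over all bright probes those shares were 23.3%, 28.6% and 19.0%. The nearest was Cd48, a SLAM family ligand, at -0.91 (SE 0.16, adjusted p = 0.0548) for Irf4 KO IgG over WT. The phosphatases Ptpn6 (SHP-1) and Inpp5d (SHIP-1), which SLAM receptors engage when SAP is absent, differed by -0.47 and -0.21 for Irf4 KO IgG over WT (adjusted p = 0.153 and 0.412) and by -0.75 and -0.51 for blockade over WT (0.0865 and 0.145).

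Among 6 tested homing and egress genes that draw cells away from follicles, Cxcr3, the receptor for interferon-induced chemokines, was lower in both comparisons with WT, and no other gene passed. It read 7743 and 5564 with blockade, 5517 and 9225 in Irf4 KO IgG cells and 16780 and 20371 in WT cells, a log2 fold change of -1.30 for Irf4 KO IgG (SE 0.12, adjusted p = 0.0200) and -1.17 for blockade (SE 0.12, adjusted p = 0.0256). Of 4 tested regulatory T cell genes 3 were higher in Irf4 KO IgG than in WT cells: Ikzf2 (2.19, adjusted p = 0.0239), which encodes Helios, Nrp1 (2.06, adjusted p = 0.0468), a surface receptor, and Tnfrsf9 (2.81, adjusted p = 0.0398), the costimulator 4-1BB. Among all bright probes 1.41% were called higher. Tnfrsf18 was tested and not called, and Foxp3 was too dim for the test. The array median over all usable probes turned Ikzf2 to -0.19 and Nrp1 to -0.66 in this comparison and left Tnfrsf9 at 0.25. Ikzf2 also passed with blockade against WT (2.35, adjusted p = 0.0246). No list had a call between blockade and Irf4 KO IgG with all arrays. Without Irf4 KO IgG array 2, which leaves that group 1 array, this log2 fold change was 1.21 for Batf, against 0.64 with all arrays. It was -1.13 for S1pr1, and both genes were picked from all the listed genes after their values were seen. Without that array, calls against WT were left for P2rx7, Runx3 and Cxcr3 in Irf4 KO IgG cells (adjusted p = 0.0470, 0.0496 and 0.0431), while Icos (0.0630) and the 6 higher calls did not pass (adjusted p from 0.0531 to 0.0935), nor did Nfatc2 with blockade (0.0506). The listed calls depend on single arrays throughout. Of the 10 for Irf4 KO IgG over WT, 0 passed without Irf4 KO IgG array 1 (adjusted p from 0.0510 to 0.0986), and 1 passed without either WT array (Nrp1 without array 1, Tnfrsf9 without array 2), without either blockade array (Ikzf2 each time) or with the 4 arrays compared alone (Ikzf2). Of the 5 for blockade over WT, 0 passed without either blockade array or either WT array (adjusted p from 0.0648 to 0.266), and all 5 passed without Irf4 KO IgG array 1. The replicate block left 4 of the 10 (Cxcr3, P2rx7, Ikzf2 and Tnfrsf9) and 2 of the 5 (Runx3 and Ikzf2), and the slide row as a block left 6 and 1 (Runx3).

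None of the 5 listed cytokines and secreted factors was bright. Il21, the cytokine by which follicular helper cells drive germinal centre B cells, read 79.6 and 5.09 with blockade, 30.9 and 177 in Irf4 KO IgG cells, and 166 and 705 in WT cells. Blockade lay under WT, but Irf4 KO IgG and WT overlapped. Il4 read 49.7 and 4.92, 74.1 and 107, and 16.8 and 37.2 for blockade, Irf4 KO IgG and WT in turn. Il21 was well above background on 5 of the 6 arrays and Il4 on 4, so their lowest readings are at background. Angptl2, Sostdc1 and Cxcl13 stayed at or under 229 on every array, and Cxcl13 was well above background on none.

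**Figure D4:**
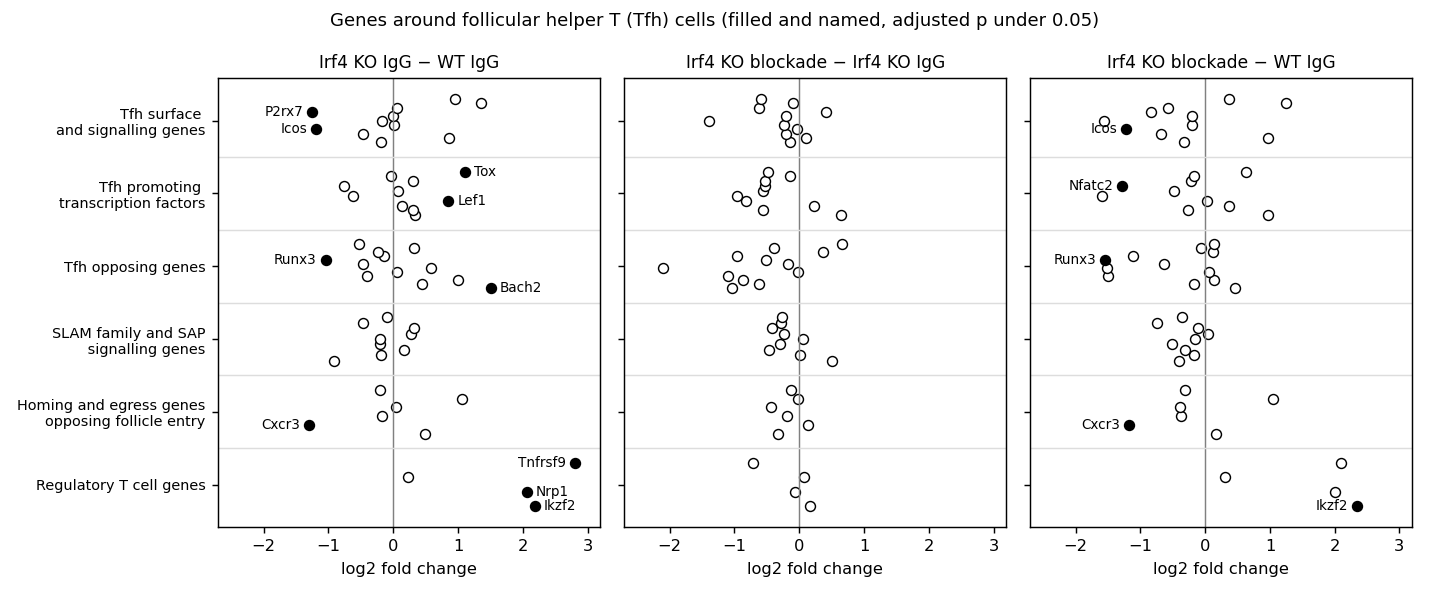
Log2 fold changes (horizontal axis) of the bright genes of 6 lists around follicular helper T (Tfh) cells in the 3 comparisons, each circle a gene by its brightest probe, filled and named where the adjusted p was under 0.05. Icos, Runx3 and Cxcr3 are filled on the lower side in both comparisons with WT, Ikzf2 on the higher side, and no circle is filled for blockade against Irf4 KO IgG.

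To see which other genes followed each member, the mean-centred profile over the 6 arrays was compared with 1192 genes that ranged over at least 1 log2 unit, by the root mean square difference. Nearest to Cxcr5 were Itpr1 (0.13), an endoplasmic reticulum calcium channel, Man2a2 (0.14), a glycan-processing mannosidase, and Runx3 (0.17), where Cxcr5 itself ranged over 1.98. Itpr1 fell by 0.99 in Irf4 KO IgG cells, and its fold change with blockade was -1.58, each against WT. It was picked for a profile like that of Cxcr5 on these same arrays, so these differences follow from the choice and are no separate evidence. Nearest to the brightest Sh2d1a probe were Aph1a (0.07), a subunit of γ-secretase, Plin3 (0.11), a lipid droplet protein, and P2rx7 (0.13). Bcl6 was followed by Baz2a (0.08) and Itpr3 (0.11), whose log2 fold changes with blockade against Irf4 KO IgG cells were -0.88 and -0.91 and did not pass. Baz2a and Itpr3 too were picked for their profile, so these differences follow from the choice and are no separate evidence. Slamf6 lay nearest to Rad52, Irgm2 and Ccdc28b (0.20 to 0.21), and Pou2af1 to Gtf2a1, Atpaf2 and Dgcr6 (0.15 to 0.17). Slamf6 and Pou2af1 themselves ranged over only 0.61 and 0.69, less than the 1 log2 unit asked of the compared genes. Their small distances therefore do not show that these genes followed them. These are descriptions over 6 arrays that share a slide and a scale.

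Among the members, Cxcr5 and Sh2d1a were both lower in Irf4 KO IgG cells than in WT cells but parted with blockade, where the mean of Cxcr5 was lowest and that of Sh2d1a stood between the other groups. Neither gene passed between blockade and Irf4 KO IgG, and whether they differ from each other was not tested. Over the 6 arrays the Sh2d1a probes lay within a root mean square difference of 0.08 to 0.15 of each other, the Slamf6 probes 0.41 from each other, and Cxcr5 0.58 to 0.62 from the Sh2d1a probes.

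**Figure D5:**
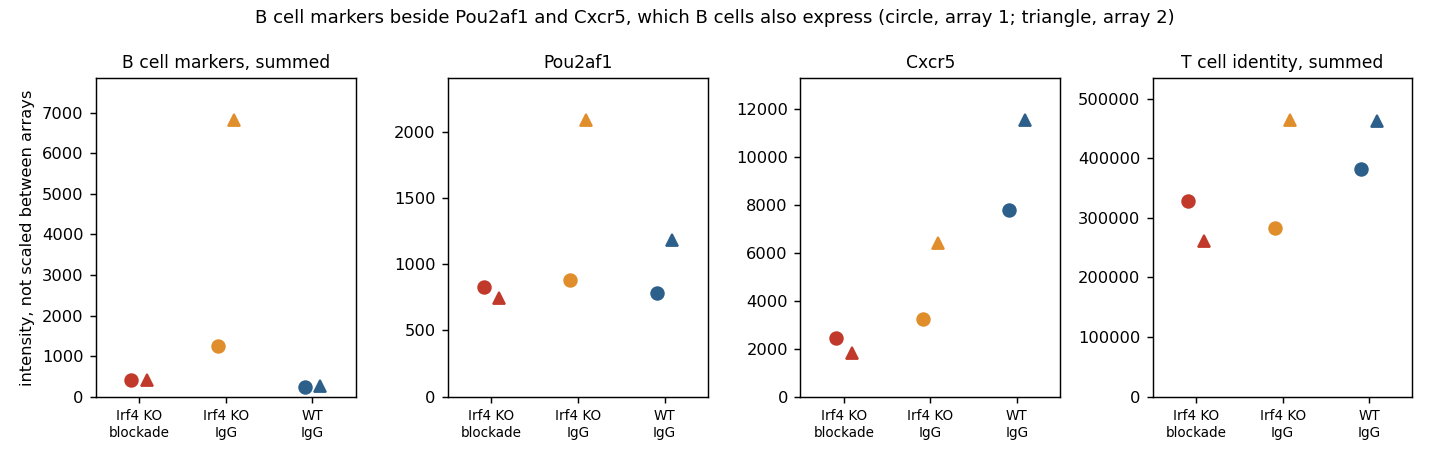
Raw intensity (vertical axes from 0) by group (Irf4 KO blockade, Irf4 KO IgG, WT IgG) of 13 B cell markers summed, Pou2af1, Cxcr5 and 11 T cell identity markers summed, with a circle for array 1 and a triangle for array 2. Irf4 KO IgG array 2 is highest for the B cell markers (6821) and for Pou2af1 (2087), while Cxcr5 is highest on the WT arrays (7774 and 11551).

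Markers of other cells also differed between arrays. The summed raw intensity of 11 monocyte, macrophage and neutrophil markers was 4338 and 7171 on the blockade arrays, 9036 and 69913 on Irf4 KO IgG arrays 1 and 2, and 4332 and 5186 on the WT arrays, and that of 6 MHC class II genes was 895 and 816, 4682 and 22574, and 1268 and 1213 in the same order, both highest on Irf4 KO IgG array 2. On Irf4 KO IgG array 2 most of the first sum was S100a8 (15377) and S100a9 (44805). Itgam, Csf1r and Adgre1 read higher on array 1 of that group, and the other markers of that list on array 2. For 7 erythroid and platelet markers the sums were 11288 and 6952 with blockade and 1551 and 54403 in Irf4 KO IgG cells. They were 183 and 755 in WT cells, so the blockade arrays lay above WT too. Most of each of these sums was Hba-a1, at 9121 and 5672, 1152 and 44583, and 127 and 612 for blockade, Irf4 KO IgG and WT. The 7 dendritic cell markers summed to 7388 and 4782, 23956 and 13096, and 7579 and 13947 in that order, highest on Irf4 KO IgG array 1. Nearly all of each sum was 1 marker, Siglech, at 7367 and 4738, 23793 and 12858, and 7552 and 13923. Of the 7 markers, 1 was well above background on each blockade and WT array, and 4 and 5 on Irf4 KO IgG arrays 1 and 2. The part of these cells in the member values was not tested. In sorted bulk cells, fewer cells expressing a gene and less RNA per cell cannot be told apart.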

How the data were processed

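Gene expression was measured on 6 one-colour Agilent mouse arrays on 1 slide, 2 arrays a group. The deposited scanner files hold the processed signal, an intensity that is background-subtracted and not scaled between arrays. Per the file headers it was made with Agilent Feature Extraction 11.0.1.1, but version 9.1 is named in the submitters' processing notes. A deposited value table, with that intensity divided by 1 number per array, served as an alternative. Per the labels' protocols, 0.5 µg of RNA was labelled.

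Of 56605 probes 1234 without a usable spot on every array were left out. RefSeq accessions named 58.3% of the rest. Log2 intensities of the 10225 probes with a mean of at least 8 (an intensity of 256) were quantile-normalised among themselves. A model of all 3 groups was fitted with limma 3.58.1 (R 4.3.3, 3 residual degrees of freedom), probe by probe, with Benjamini-Hochberg adjustment over all of them and a threshold of 0.05. It was tested on simulated data. The number of arrays limits the precision, and how many animals lie behind an array is not stated.

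The members and lists were chosen with earlier results of these data known. Named are all members, Irf4, every listed gene that passed or else up to 3 a list with the lowest p, and the 3 genes nearest in profile to each bright member; results on some genes are not reported here. The alternatives were other minimums, scales and background corrections, 1 probe a gene, the value table, blocks by replicate number or slide row, the 4 arrays compared alone, and each array left out. For Maf, the lower minimum with blocks or an array left out was added after seeing the data, as were blocks and arrays left out for the listed genes and the member median with 1 probe a gene. The replicate numbers do not pair the groups by the labels, and same-numbered deviations correlated at 0.04, -0.18 and 0.05. Probe positions are not given, because the headers name a genome build (mm9) other than that of the reference (GRCm38.p6).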

Additional observations from a re-analysis of the deposited data

How the results depend on the processing

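For Irf4 KO IgG over WT, 4 member probes were called. The count was 2 with 1 probe a gene, which leaves 5 member probes, 1 with a minimum of 9, 1 with probes well above background on all 6 arrays, 8 with the array median, 6 with the 75th percentile, which adds both Slamf6 probes as lower, 3 with a minimum of 7, cyclic loess or normexp, each without 1 Sh2d1a probe, 1 with the slide row as a block, 0 with the replicate block, 0 with the 4 arrays compared alone, and 0 to 2 with an array left out. Leaving out an array or using a block leaves fewer residual degrees of freedom, and Cxcr5 and Sh2d1a were lower in every setting run. Replicate numbers do not pair the arrays. For blockade over Irf4 KO IgG, the array median gave 8 and the 75th percentile 4 in place of 0, and every other setting gave 0. Of the 34988 probes tested with the array median and the 75th percentile, 64.2% and 56.7% were called in that comparison. For Irf4 KO IgG over WT 65.6% and 56.3% were called, so these member counts say little about the members. For blockade over WT, 1 became 0 with probes well above background on all 6 arrays and with either scale over all usable probes. The replicate block kept that call (adjusted p = 0.0353) and changed no member call other than those of the first comparison. The 2 scales set over all usable probes, detected or not, are the 75th percentile and the array median. The median intensity over all spots was 7.98 and 6.06 with blockade, 52.8 and 87.3 in Irf4 KO IgG cells, and 8.85 and 10.8 in WT cells. On the blockade and WT arrays 37.2% to 42.9% of spots were well above background, so the array median there lies among weak signals not called above it. The median over all tested probes was -1.75 for Irf4 KO IgG over WT and 1.80 for blockade over Irf4 KO IgG with the array median, and every probe of a comparison moves by the same amount between the 2 scales.

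Signs turned as follows. For Irf4 KO IgG over WT, with the 75th percentile Pou2af1 gave -0.71, Bcl6 -0.88 and the brighter Slamf6 probe -1.10, and with the array median they gave -2.38, -2.54 and -2.77. That Slamf6 probe gave -0.13 with the median of the bright probes. For blockade over Irf4 KO IgG, with the 75th percentile Pou2af1 gave 0.76, Bcl6 0.39, Cxcr5 0.44 and the weaker Slamf6 probe 0.87, and with the array median they gave 2.55, 2.18, 2.23 and 2.66, and Maf 1.098. With an array left out, Irf4 KO IgG over WT ran from -0.082 to 0.62 for Pou2af1, -0.17 to 0.57 for Bcl6, -0.090 to 0.25 for the brighter and -0.60 to 0.094 for the weaker Slamf6 probe. Blockade over Irf4 KO IgG ran from -0.60 to 0.099 for Pou2af1 and -0.52 to 0.19 for the weaker Slamf6 probe, and blockade over WT from -0.083 to 0.12 for Pou2af1. The causes were not tested. Maf passed for Irf4 KO IgG over WT with the 75th percentile (-2.69, adjusted p = 0.0274) and the array median (-4.35), and in no other setting or comparison. Those 2 scales called 56.3% and 65.6% of all tested probes in that comparison.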

Other observations

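Several listed genes were too dim for the test and are given as raw intensities, chosen after their values were seen. Cxcr4, which positions follicular helper cells within the germinal centre, read 282 and 225 with blockade, 311 and 1257 in Irf4 KO IgG cells, and 87.4 and 90.0 in WT cells, so all 4 arrays of cells labelled Irf4 KO lay above both WT arrays. Ikzf4, which encodes Eos, a partner of Foxp3, read 238 and 210 with blockade, 476 and 840 in Irf4 KO IgG cells, and 40.7 and 98.6 in WT cells, in the same arrangement. Foxp3 itself read 35.4 and 30.0, 41.9 and 185, and 16.0 and 21.9 for blockade, Irf4 KO IgG and WT. Pou2f2, an octamer-binding factor that Pou2af1 joins, read 146 and 65.5 with blockade, 183 and 391 in Irf4 KO IgG cells, and 42.9 and 89.4 in WT cells, highest on Irf4 KO IgG array 2, where B cell markers were also highest. Tox2, a relative of Tox, read 3.15 and 4.04 with blockade, 59.3 and 90.8 in Irf4 KO IgG cells, and 33.0 and 26.9 in WT cells. None of these was in the test among bright probes. Fits with a lower minimum or a scale over all usable probes covered some of them, Cxcr4 and Ikzf4 included, and are not given for them. The general rise of weak signals on the Irf4 KO IgG arrays lies in each value from those arrays.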
